A study of Mus musculus with 9 samples.

Results

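Transcripts of the vessel wall were examined in quadriceps muscle of dystrophin-deficient mdx mice. The set holds 38 genes that mark endothelial cells (30 genes) or mural cells (8 genes: Pdgfrb, Rgs5, Cspg4, Notch3, Myh11, Kcnj8, Abcc9 and Mcam), listed by gene name with no limit on their values. The 38 genes were chosen with earlier results of these data known. Of these, 36 were found on transcript clusters of the array that carry 1 gene symbol, out of 30707 genes found that way. They are 28 endothelial genes and all 8 mural genes, each with 1 cluster. Egfl7 was on a cluster with several symbols and Tspan7 was not matched, and neither was analysed here.

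The groups were 3 Cre-/mdx control mice, 3 MCK-MRcko/mdx mice and 3 LysM-MRcko/mdx mice, all 8 weeks old, of the C57BL6/C57BL10 strain, with 1 Clariom D array per mouse. All 9 mice carried mdx and MR flox/flox, the floxed alleles of the mineralocorticoid receptor (MR), so the controls differed from the knockouts in lacking Cre. MCK-Cre is driven by the muscle creatine kinase promoter and deletes MR in myofibers. LysM-Cre is driven by the lysozyme M promoter and deletes MR in myeloid cells, which include macrophages and neutrophils. Neither driver is directed at endothelial or mural cells. The comparisons ask how vascular transcripts of whole dystrophic muscle differ when MR is removed from either of these other cell types. The Cre-/mdx group and the LysM-MRcko/mdx group each held 2 males and 1 female, and the MCK-MRcko/mdx group held 1 male and 2 females.

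Endothelial cells line every vessel and are joined by adherens junctions built on VE-cadherin. Their survival and growth depend on receptors for vascular endothelial growth factor (VEGF) and for angiopoietins, and their identity on transcription factors of the ETS and SOX families. Mural cells, the pericytes of capillaries and the smooth muscle cells of larger vessels, sit around the endothelium and are recruited by platelet-derived growth factor acting on PDGFRB. In skeletal muscle a dense capillary bed runs along the myofibers and supplies oxygen and lipid.

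RefSeq promoter windows (build GRCm38.p6, 250 bases before to 50 after a transcription start) were available for 19 of the 36 genes. Those of the genes called below (at least 2-fold at p under 0.05) that have a window are shown, with Tie1 as the window with most matches to the core letters bound by ETS factors. Capitals mark AGGAAG or CGGAAG on either strand (read CTTCCT or CTTCCG on the reverse strand), and lower case has no match.
Adgrf5, upstream start (chr17:43360181-43360480, + strand): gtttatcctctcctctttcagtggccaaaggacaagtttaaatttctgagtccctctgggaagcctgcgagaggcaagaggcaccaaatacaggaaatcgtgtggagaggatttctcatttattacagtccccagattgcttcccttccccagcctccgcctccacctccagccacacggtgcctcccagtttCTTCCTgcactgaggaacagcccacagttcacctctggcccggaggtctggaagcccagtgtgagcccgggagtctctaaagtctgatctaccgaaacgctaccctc
Adgrf5, downstream start (chr17:43389216-43389515, + strand): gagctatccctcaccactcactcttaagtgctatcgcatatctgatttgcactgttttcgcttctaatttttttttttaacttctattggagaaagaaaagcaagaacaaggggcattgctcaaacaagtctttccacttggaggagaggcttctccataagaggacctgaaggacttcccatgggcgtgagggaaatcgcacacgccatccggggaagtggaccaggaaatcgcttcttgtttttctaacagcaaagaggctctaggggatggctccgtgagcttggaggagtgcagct
Tie1 (chr4:118489800-118490099, - strand): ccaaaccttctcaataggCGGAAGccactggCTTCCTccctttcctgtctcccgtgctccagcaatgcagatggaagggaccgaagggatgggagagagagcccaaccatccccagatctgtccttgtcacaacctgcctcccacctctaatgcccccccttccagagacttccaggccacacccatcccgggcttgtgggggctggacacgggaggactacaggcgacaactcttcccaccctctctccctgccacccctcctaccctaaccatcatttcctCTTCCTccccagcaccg
Rgs5 (chr1:169655251-169655550, + strand): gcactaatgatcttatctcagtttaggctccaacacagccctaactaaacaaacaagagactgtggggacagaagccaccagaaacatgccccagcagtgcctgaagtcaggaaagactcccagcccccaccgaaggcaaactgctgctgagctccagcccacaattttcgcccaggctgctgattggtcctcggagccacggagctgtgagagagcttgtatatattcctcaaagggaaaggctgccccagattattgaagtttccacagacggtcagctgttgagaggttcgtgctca
Abcc9 (chr6:142702225-142702524, - strand): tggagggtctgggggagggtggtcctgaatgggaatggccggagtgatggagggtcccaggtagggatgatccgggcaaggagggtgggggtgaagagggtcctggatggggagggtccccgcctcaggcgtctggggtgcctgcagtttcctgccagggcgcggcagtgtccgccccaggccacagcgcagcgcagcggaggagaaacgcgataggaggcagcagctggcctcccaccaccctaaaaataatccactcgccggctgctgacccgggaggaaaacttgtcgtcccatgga
The endothelial genes had 17 windows, of which 9 held at least 1 match (52.9%), and the 6 mural windows held 0. Of all 32851 windows of the same length, 46.5% held a match, so these letters were about as common in the endothelial windows as in promoters at large. Tie1 held 3 matches and the upstream start of Adgrf5 held 1. A match is a description of letters and not a site of binding.

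The values are log2 signals of transcript clusters, already normalised as deposited. Array medians lay between 4.70 and 4.78, and 159 to 173 clusters per array sat at the ceiling of 19.93, none of them an endothelial or mural gene. The means of the 36 genes over the 9 arrays ran from 5.43 (Icam2) to 15.54 (Rgs5), and since probe sets differ in brightness these levels are not set against each other. Several dim genes had the same value on most arrays, which leaves little room to see a difference. Equal arrays were 7 of 9 for Sox17, 6 of 9 for Flt4 and Icam2, and 5 of 9 for Vwf and Nos3. Nr3c2, the gene of MR, read 6.89, 7.12 and 7.06 in Cre-/mdx, 6.74, 6.81 and 6.87 in MCK-MRcko/mdx, and 6.89, 6.89 and 6.96 in LysM-MRcko/mdx. It was lower by 0.22 ± 0.07 (SE) in MCK-MRcko/mdx (limma adjusted p = 0.84) and by 0.11 ± 0.07 in LysM-MRcko/mdx (limma adjusted p = 0.81), in muscle that holds many cells without either Cre. The MCK-MRcko/mdx arrays all lay below the Cre-/mdx arrays in Nr3c2, where 2.81% of all clusters did so, and the LysM-MRcko/mdx arrays did not. Whether its probes lie in the deleted part of the gene is not given in the sources used here. Because whole muscle was measured, fewer vascular cells and less RNA per vascular cell cannot be told apart.

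Differences were tested with limma over all 65672 clusters. A gene was called when it differed by at least 2-fold (1 on the log2 scale) at an unadjusted p under 0.05. After Benjamini-Hochberg adjustment over all clusters, 0 clusters passed 0.05 in any contrast, against 3640, 4069 and 4679 at an unadjusted p under 0.05 for the myofiber knockout against controls, the myeloid knockout against controls and the myeloid against the myofiber knockout. The smallest adjusted p of any of the 36 genes was 0.84, 0.78 and 0.42 in these contrasts. Each gene below therefore fails the correction, and differences are written as higher or lower and not as changes. Intervals are 95% limma intervals of a log2 difference, and one that leaves out 0 stands for an unadjusted p under 0.05. With 3 arrays a group an exact permutation test of 1 gene cannot go below 0.10, so none is given.

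In MCK-MRcko/mdx muscle every endothelial gene had a lower mean than in Cre-/mdx muscle. All 28 log2 differences were below 0, with a median of -0.59 and a range of -1.26 to -0.09, where the median over all clusters was 0.00 and 48.7% of all clusters were below 0. Of the 28, 17 were lower at p under 0.05 and 0 were higher, where 2.52% of all clusters were lower at that limit, and 2 were called lower (Cdh5 and Adgrf5), where 0.0944% of all clusters were. The count of 17 fell to 10 in a separate fit on these 6 arrays and to 5 by a plain equal-variance test. In 14 genes the 3 MCK-MRcko/mdx arrays all lay below the 3 Cre-/mdx arrays, where 2.81% of all clusters did so. Among the 6577 genes with a mean of 8 or more, 4.24% were lower at p under 0.05 and 38.6% were below 0, while 13 of the 16 endothelial genes of that level were lower at p under 0.05 with a median of -0.72. The 12 endothelial genes under 8 had a median of -0.18, and 4 of them were lower at p under 0.05.

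**Figure D1:**
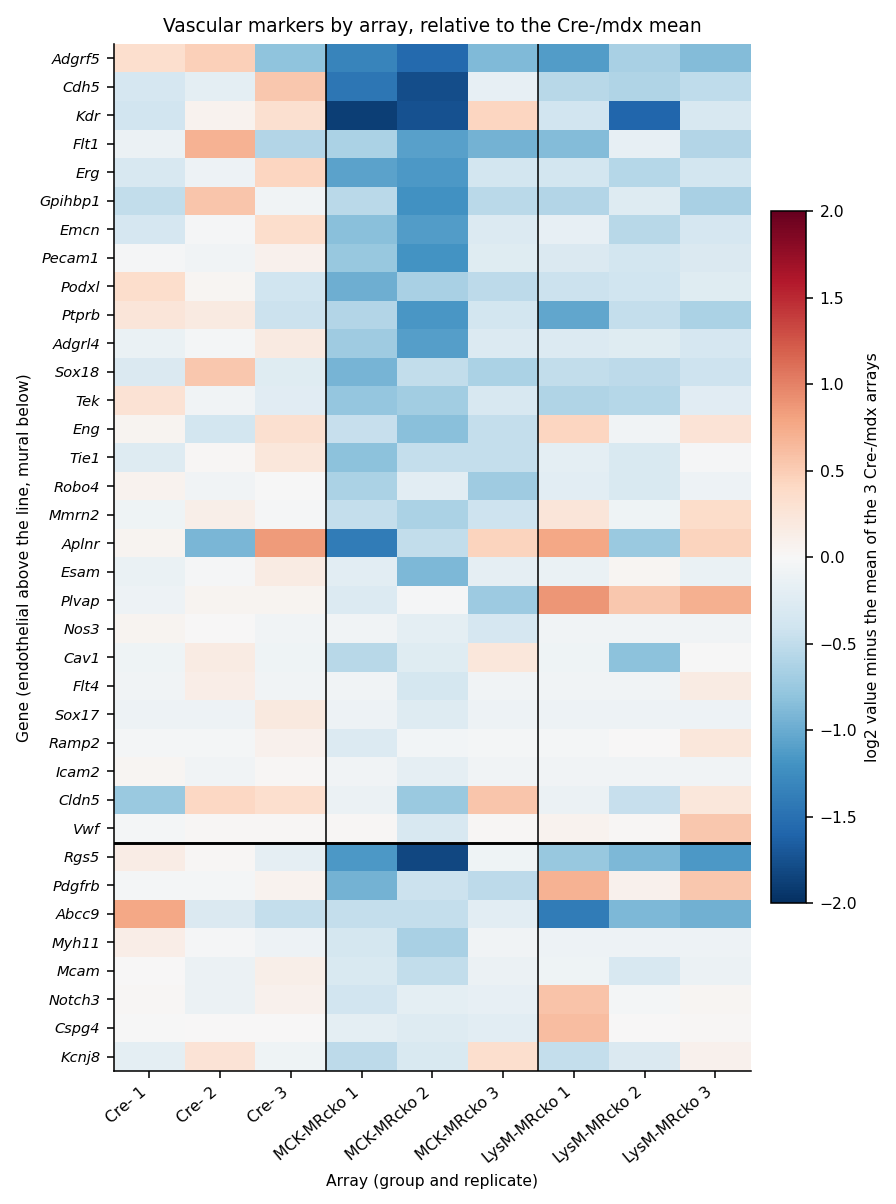
Each row is a gene and each column an array, and colour gives the log2 value minus the mean of the 3 Cre-/mdx arrays of that gene (blue lower, red higher). Blue fills most of the MCK-MRcko/mdx columns, with replicate 3 paler than the other two, and Plvap and Pdgfrb are red in LysM-MRcko/mdx.

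The lower levels were not equal across the 3 MCK-MRcko/mdx mice. The median over the 28 genes of the deviation from the Cre-/mdx mean was -0.61 in replicate 1, -0.67 in replicate 2 and -0.30 in replicate 3, against -0.31 to -0.12 in LysM-MRcko/mdx arrays and -0.08 to 0.04 in Cre-/mdx arrays. Replicate 2 was the lowest of all 9 arrays in 16 of 28 genes, and replicate 3 was the highest of its group in 17 of 28. Without replicate 2, 11 of 28 genes were lower at p under 0.05 and the median was -0.50, and without replicate 3 these values were 17 and -0.68. Within females (2 MCK-MRcko/mdx arrays, 1 Cre-/mdx array) 24 of 28 differences were below 0 with a median of -0.51, and within males (1 and 2 arrays) 27 of 28 were below 0 with a median of -0.67.

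Among junction and adhesion genes, Cdh5, which encodes VE-cadherin, read 14.30, 14.44 and 15.17 in Cre-/mdx and 13.19, 12.87 and 14.47 in MCK-MRcko/mdx. The groups overlapped by the high MCK-MRcko/mdx replicate 3. The difference was -1.13 ± 0.42 (SE), a 2.18-fold lower level (95% interval of the log2 difference -2.13 to -0.13). Its call was lost when control replicate 2 (-1.23), control replicate 3 (-0.86), knockout replicate 1 (-0.97) or knockout replicate 2 (-0.81) was left out. Pecam1, the adhesion molecule CD31 of endothelial contacts, read 11.28, 11.23 and 11.39 in Cre-/mdx and 10.54, 10.10 and 11.06 in MCK-MRcko/mdx. These arrays did not overlap, and Pecam1 was 1.66-fold lower (log2 difference -0.73 ± 0.21, interval -1.24 to -0.23). Esam, a tight-junction adhesion molecule of endothelium and platelets, also did not overlap (7.56 to 7.86 against 6.80 to 7.51), with a difference of -0.43 ± 0.20 that missed the limit (interval -0.89 to 0.03). Cldn5, the claudin that seals endothelial tight junctions, differed by -0.10 with an interval of -1.11 to 0.92, which leaves room for a difference of either sign, and Icam2, a leukocyte ligand, differed by -0.10 (interval -0.20 to 0.0047).

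Among growth factor receptors, Kdr, the main VEGF receptor (VEGFR2), split the MCK-MRcko/mdx mice. It read 10.84, 11.30 and 11.54 in Cre-/mdx, 9.34 and 9.49 in MCK-MRcko/mdx replicates 1 and 2, and 11.65 in replicate 3, the highest of all 9 arrays. The difference of -1.07 ± 0.66 was over 2-fold but missed the p limit (interval -2.63 to 0.50), and without replicate 3 it was -1.81 and called. Flt1, VEGFR1, which binds VEGF tightly and limits its action, read 9.96, 10.77 and 9.48 against 9.43, 8.99 and 9.13 and did not overlap (-0.89 ± 0.34, interval -1.69 to -0.08). Flt4, VEGFR3 of lymphatic and sprouting endothelium, was dim and differed by -0.16 (interval -0.42 to 0.09). Tie1 and Tek, the receptor pair of the angiopoietin pathway, were both lower without overlap. Tie1 read 7.45, 7.74 and 7.94 against 6.89, 7.23 and 7.24 (-0.59 ± 0.15, interval -0.95 to -0.23). Tek, the angiopoietin receptor TIE2, read 10.30, 9.94 and 9.77 against 9.23, 9.31 and 9.68 (-0.60 ± 0.18, interval -1.03 to -0.16). Ptprb, the phosphatase VE-PTP that acts on TIE2, was lower by a similar margin (-0.71 ± 0.27, interval -1.35 to -0.06) with overlap of replicate 3. Eng, the endoglin co-receptor for BMP9, read 10.51, 10.08 and 10.77 against 9.99, 9.61 and 9.98 (-0.59 ± 0.21, interval -1.10 to -0.09), again without overlap. Robo4, a stabilising endothelial receptor of the roundabout family, read 7.23, 7.09 and 7.15 against 6.53, 6.94 and 6.44 (-0.52 ± 0.13, interval -0.83 to -0.21). Aplnr, the apelin receptor, varied widely within groups (7.54 to 9.30 in Cre-/mdx) and its interval of -2.04 to 1.07 covers both signs.

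Adgrf5, an adhesion G protein-coupled receptor of endothelium that is best known in lung, was the endothelial gene with the greatest difference. It read 14.05, 14.20 and 12.91 in Cre-/mdx and 12.40, 12.16 and 12.83 in MCK-MRcko/mdx. The groups did not overlap, although Cre-/mdx replicate 3 lay only just above MCK-MRcko/mdx replicate 3. Adgrf5 was 2.39-fold lower (-1.26 ± 0.36, interval -2.10 to -0.41), and it stayed called in all 9 fits that left out 1 array. Adgrl4 (ELTD1), a related receptor of growing vessels, read 11.76, 11.86 and 12.07 against 11.18, 10.80 and 11.62 (-0.70 ± 0.19, interval -1.16 to -0.24).

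Of the transcription factors, Erg, the ETS factor that maintains endothelial identity, read 8.45, 8.67 and 9.20 against 7.70, 7.62 and 8.41 and did not overlap (-0.86 ± 0.26, interval -1.48 to -0.25). Sox18, a SOX factor of vascular and lymphatic development, read 6.96, 7.79 and 7.01 against 6.32, 6.76 and 6.62 (-0.69 ± 0.23, interval -1.23 to -0.15). Sox17, an arterial SOX factor, had nearly constant values and a difference of -0.15 (interval -0.36 to 0.06).

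Among genes of the luminal surface, Podxl, a sialomucin of the luminal membrane, read 9.28, 8.97 and 8.52 against 7.95, 8.28 and 8.40 (-0.71 ± 0.20, interval -1.19 to -0.24). Emcn, the endomucin of capillaries and veins, was lower by 0.74 ± 0.26 (interval -1.34 to -0.14), with overlap of 1 array pair. Gpihbp1, which carries lipoprotein lipase to the capillary lumen, read 9.50, 10.55 and 9.93 against 9.46, 8.78 and 9.45 (-0.76 ± 0.30, interval -1.48 to -0.05). Mmrn2, an extracellular matrix protein of the endothelial surface, read 8.65, 8.84 and 8.70 against 8.25, 8.09 and 8.32 without overlap (-0.51 ± 0.12, interval -0.80 to -0.22). Nos3, endothelial nitric oxide synthase, was dim and lower by 0.20 ± 0.07 (interval -0.37 to -0.03). Vwf, the clotting protein stored in endothelial granules, read 6.53, 6.60 and 6.60 against 6.60, 6.26 and 6.60. Its difference of -0.09 had an interval of -0.45 to 0.27. This dim gene had the same value on 5 of 9 arrays, so the narrow interval cannot exclude a 2-fold difference. Plvap (-0.34, interval -0.76 to 0.08), Cav1, the caveolin of endothelium and of other cells (-0.19, interval -0.82 to 0.44), and Ramp2, a partner of the adrenomedullin receptor (-0.12, interval -0.34 to 0.10), also missed the limit.

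**Figure D2:**
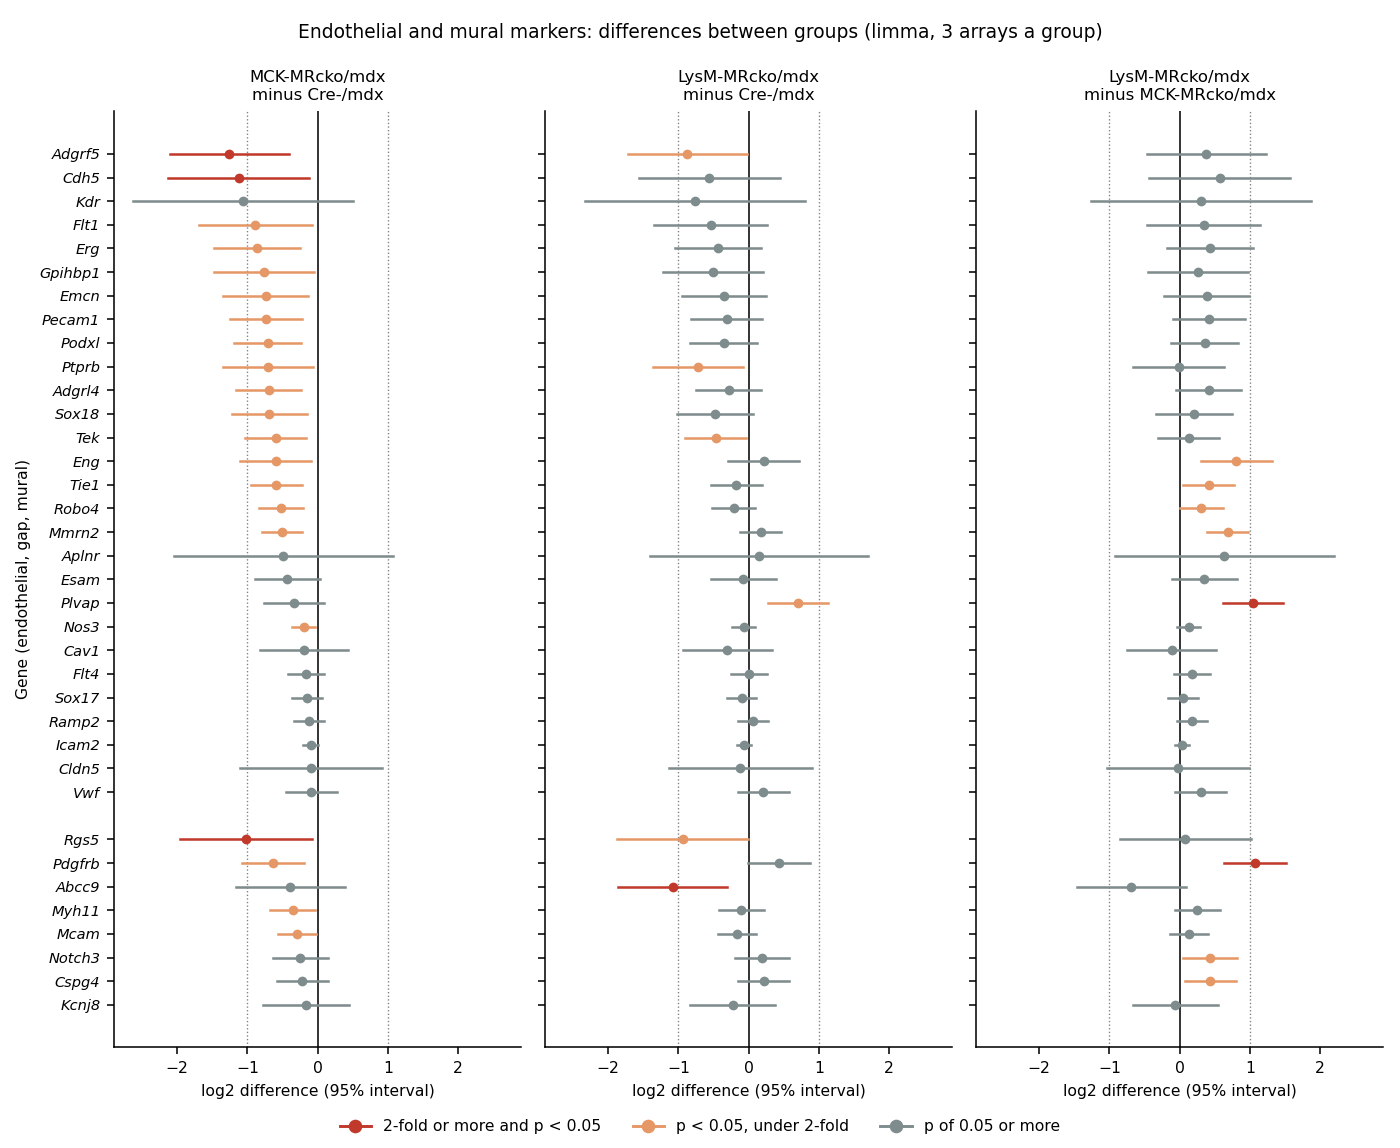
Points are limma log2 differences and lines their 95% intervals for the 28 endothelial genes (above the gap) and 8 mural genes (below it) in 3 contrasts, with dotted lines at 2-fold. In the left panel all points lie left of 0, and in the right panel Plvap and Pdgfrb lie past 2-fold on the right.

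The 8 mural genes were also all lower in MCK-MRcko/mdx than in Cre-/mdx, with a median of -0.33 and a range of -1.02 to -0.17, where 48.7% of all clusters were below 0. Of these, 4 were lower at p under 0.05 (Pdgfrb, Rgs5, Myh11 and Mcam), where 2.52% of all clusters were, and 1 was called, Rgs5, where 0.0944% were. The count of 4 fell to 2 by the plain equal-variance test and with the replicate block, and to 1 when control replicate 1 or knockout replicate 1 or 2 was left out. It also fell to 2 when replicate 2 or 3 of Cre-/mdx or of LysM-MRcko/mdx, which shares the fit, was left out. These counts are over all 8 mural genes and need not hold the same genes as the 4 named. Rgs5, a GTPase-activating protein for G proteins and a pericyte marker, read 16.34, 16.22 and 16.02 in Cre-/mdx and 15.04, 14.38 and 16.10 in MCK-MRcko/mdx. Replicate 3 of the knockout thus stood at the control level while the others lay over 1 unit lower, and the difference was -1.02 ± 0.39 (2.03-fold lower, interval -1.95 to -0.09). Among the fits without 1 array the call was kept only when MCK-MRcko/mdx replicate 3 was left out, and without replicate 2 the difference was -0.62. Pdgfrb, the PDGF-B receptor of pericytes and also of fibroblasts, read 10.73, 10.73 and 10.84 against 9.82, 10.33 and 10.25 and did not overlap (-0.63 ± 0.19, interval -1.07 to -0.19). Myh11, smooth muscle myosin heavy chain, read 8.06, 7.91 and 7.83 against 7.58, 7.29 and 7.86 (-0.36 ± 0.14, interval -0.68 to -0.03). Mcam (CD146), an adhesion molecule of pericytes and endothelium, was lower by 0.30 ± 0.11 (interval -0.57 to -0.03). Cspg4, the NG2 proteoglycan of pericytes, read 6.13, 6.15 and 6.15 against 5.95, 5.89 and 5.93, and Notch3, the Notch receptor of vascular smooth muscle, read 7.11, 6.97 and 7.17 against 6.70, 6.89 and 6.92. Both did not overlap, but their differences of -0.22 and -0.25 missed the limit (Cspg4 interval -0.58 to 0.14, Notch3 interval -0.64 to 0.14). In all, 3 of the 8 mural genes were lower without overlap (Pdgfrb, Cspg4 and Notch3), where 2.81% of all clusters were. The fit shares 1 spread over the 3 groups. The SDs of Cspg4 were 0.01 in Cre-/mdx, 0.03 in MCK-MRcko/mdx and 0.35 in LysM-MRcko/mdx. Those of Myh11 were 0.12, 0.29 and 0 in the same order. Kcnj8 and Abcc9, the pore and sulfonylurea receptor subunits of the mural ATP-sensitive potassium channel, differed by -0.17 (interval -0.77 to 0.44) and -0.39 (interval -1.17 to 0.39). The mural median deviation was -0.43, -0.46 and -0.14 in MCK-MRcko/mdx replicates 1 to 3, the same array being nearest to the controls as for the endothelial genes. Within females and within males all 8 differences were below 0, with medians of -0.20 and -0.50.

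**Figure D3:**
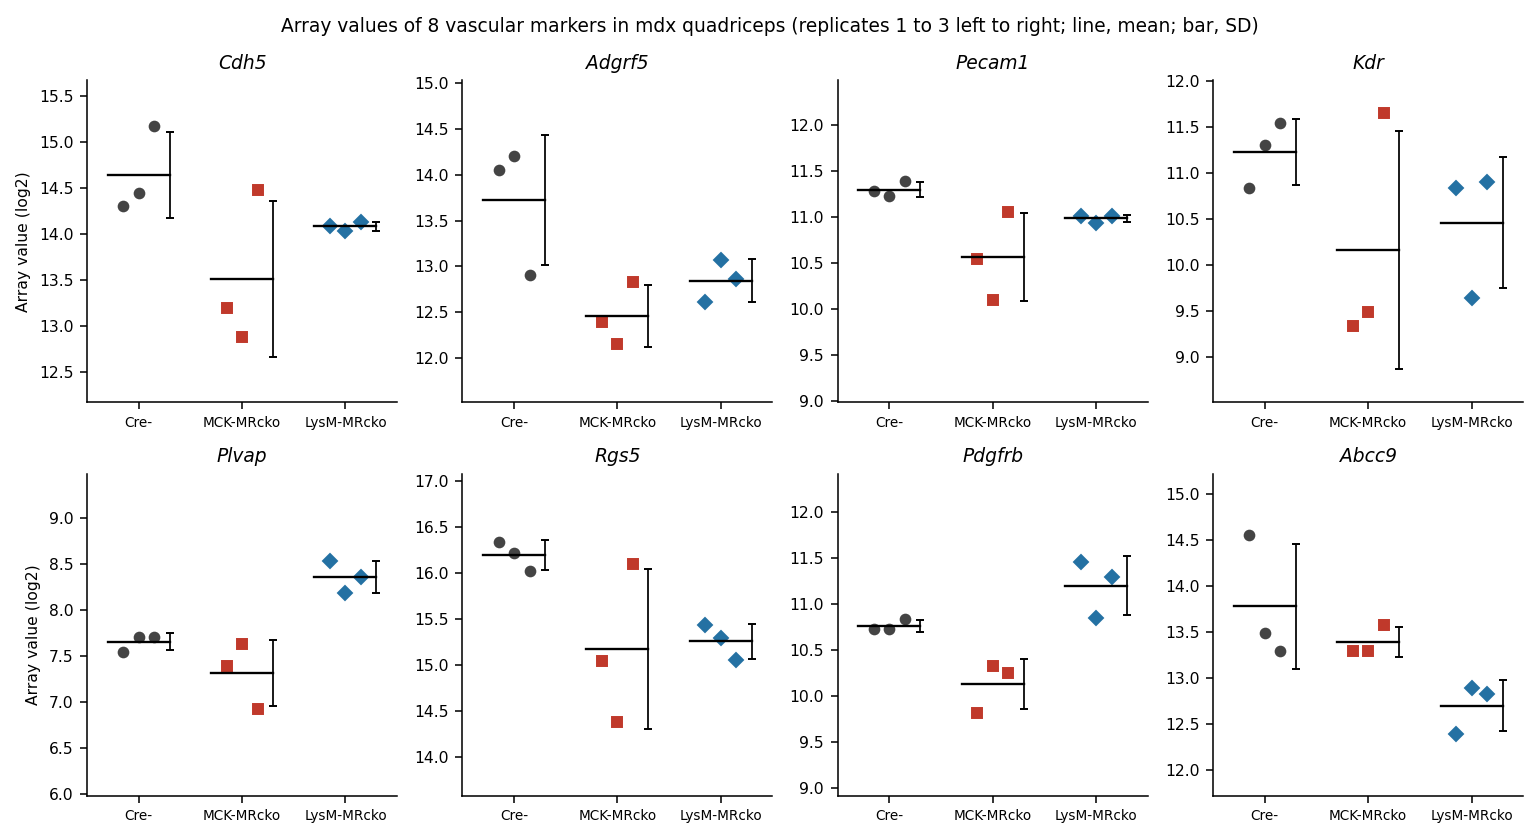
Each point is 1 array, the horizontal line the mean and the bar the SD of 3 arrays. The log2 axes all span the same range but start at different values. In Cdh5, Kdr and Rgs5 the third MCK-MRcko/mdx array stands apart from the other two, and in Plvap and Pdgfrb the LysM-MRcko/mdx arrays lie above all others.

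LysM-MRcko/mdx muscle was compared with the same 3 Cre-/mdx arrays, so the contrasts share their controls and are given side by side only. Here 21 of the 28 endothelial differences were below 0 and 7 above, with a median of -0.25 and a range of -0.87 to 0.71, where 48.8% of all clusters were below 0. At p under 0.05, 3 were lower (Tek, Adgrf5 and Ptprb), where 3.35% of all clusters were, and 1 was higher (Plvap), where 2.85% were. The count of 3 was 0 when control replicate 2 or knockout replicate 1 was left out and with the replicate block, 1 when knockout replicate 2 or 3 was, and 5 when control replicate 3 was. By limma 0 were called, and the share of all clusters called was 0.142% lower and 0.234% higher. In 7 genes the LysM-MRcko/mdx arrays all lay below Cre-/mdx (Cdh5, Pecam1, Adgrl4, Erg, Sox18, Robo4 and Ptprb), where 4.44% of all clusters did. Among genes with a mean of 8 or more, the level of all of these but Sox18 and Robo4, 9.9% did. Of the 16 endothelial genes with a mean of 8 or more, 3 were lower at p under 0.05, where 8.36% of all genes of that level were.

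Adgrf5 read 12.61, 13.07 and 12.86 in LysM-MRcko/mdx, a 1.83-fold lower level than in Cre-/mdx (-0.87 ± 0.36, interval -1.72 to -0.03). It overlapped only with Cre-/mdx replicate 3, and without that array the difference was -1.28 and called. Tek read 9.40, 9.43 and 9.78 (-0.47 ± 0.18, interval -0.90 to -0.03), and Ptprb read 11.28, 11.84 and 11.69 against 12.57, 12.50 and 11.90 in Cre-/mdx (-0.72 ± 0.27, interval -1.36 to -0.08). Cdh5 read 14.08, 14.03 and 14.13, with the least spread of the 3 groups and a difference of -0.56 ± 0.42 (interval -1.56 to 0.44), and Pecam1 read 11.01, 10.94 and 11.01 (-0.31 ± 0.21, interval -0.82 to 0.19). Kdr read 10.84, 9.64 and 10.90, with replicate 2 low (-0.77 ± 0.66, interval -2.33 to 0.80). Plvap went the other way. This protein forms the diaphragms of fenestrated and caveolar endothelium, and it read 7.55, 7.71 and 7.71 in Cre-/mdx and 8.54, 8.19 and 8.36 in LysM-MRcko/mdx, without overlap (0.71 ± 0.18, 1.63-fold higher, interval 0.28 to 1.13). Vwf, with its repeated values, differed by 0.21 (interval -0.15 to 0.57).

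The mural genes split in LysM-MRcko/mdx, with 5 below and 3 above Cre-/mdx and a median of -0.14. At p under 0.05, 2 were lower (Abcc9 and Rgs5), where 3.35% of all clusters were, and 0 were higher. Without overlap, these 2 lay below the controls and 1 lay above (Pdgfrb), where 4.44% and 3.29% of all clusters did. Among genes with a mean of 8 or more, the level of these genes, the shares were 9.9% and 6.37%. At that level 8.36% were lower at p under 0.05. Abcc9, whose protein also serves the potassium channels of muscle fibers, was called lower, as 1 of 8 against 0.142% of all clusters. It read 14.56, 13.49 and 13.30 in Cre-/mdx, 13.30, 13.30 and 13.58 in MCK-MRcko/mdx and 12.39, 12.89 and 12.83 in LysM-MRcko/mdx, which lay below all other arrays (-1.08 ± 0.33, 2.11-fold lower than Cre-/mdx, interval -1.86 to -0.30). Leaving out replicate 1 of the controls (-0.69) or of the knockout (-0.92) ended the call. Rgs5 read 15.43, 15.29 and 15.05, below all Cre-/mdx arrays (-0.94 ± 0.39, 1.91-fold lower, interval -1.87 to -0.0028). Pdgfrb read 11.46, 10.85 and 11.30, above all Cre-/mdx arrays by a difference that just missed the limit (0.44 ± 0.19, interval -0.0041 to 0.88). Myh11 read 7.83 on all 3 arrays (-0.10 ± 0.14, interval -0.43 to 0.22). Within females (1 array each) and within males (2 arrays each) the endothelial median was -0.17 and -0.24 and the mural median -0.04 and -0.18.

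The knockouts were also compared with each other, a contrast that does not use the controls in its means. Endothelial genes were mostly higher in LysM-MRcko/mdx than in MCK-MRcko/mdx, with 25 of 28 differences above 0 and a median of 0.33, where 48.1% of all clusters were below 0 and the median over all clusters was 0.00. At p under 0.05, 5 were higher (Tie1, Eng, Robo4, Plvap and Mmrn2) and 0 lower, where 2.99% and 4.13% of all clusters were, and 6 lay above MCK-MRcko/mdx without overlap, where 3.72% did. Among genes with a mean of 8 or more, 63.5% were below 0 and 5.03% higher at p under 0.05, while 14 of the 16 endothelial genes of that level were above 0 and 2 higher at that limit. Plvap was called higher, where 0.204% of all clusters were. Plvap read 7.39, 7.63 and 6.93 in MCK-MRcko/mdx, all below the LysM-MRcko/mdx arrays (1.05 ± 0.18, 2.07-fold, interval 0.62 to 1.47). Its call was lost when MCK-MRcko/mdx replicate 3 was left out (0.85) or the first LysM-MRcko/mdx array was (0.96). Mmrn2 read 8.97, 8.65 and 9.09 in LysM-MRcko/mdx (0.68 ± 0.12, interval 0.39 to 0.97), and Eng read 10.89, 10.38 and 10.73 (0.81 ± 0.21, interval 0.30 to 1.31), each without overlap. This count of 5 rose to 10 without MCK-MRcko/mdx replicate 3 and fell to 3 when LysM-MRcko/mdx replicate 1 or 3 was left out. Of the mural genes, 6 of 8 were higher in LysM-MRcko/mdx with a median of 0.19, and 3 were higher at p under 0.05 (Pdgfrb, Cspg4 and Notch3). Pdgfrb was called, with no overlap between the groups (1.07 ± 0.19, 2.10-fold, interval 0.63 to 1.51), and leaving out replicate 1 of either knockout ended the call (0.91 without the MCK-MRcko/mdx array, 0.94 without the LysM-MRcko/mdx array). Cspg4 read 6.76, 6.15 and 6.17 and Notch3 read 7.66, 7.04 and 7.12 in LysM-MRcko/mdx, with replicate 1 highest in both, and each differed by 0.44 (Cspg4 interval 0.07 to 0.80, Notch3 interval 0.05 to 0.83). Rgs5 differed by 0.08 with an interval of -0.85 to 1.02, and Adgrf5 by 0.38 with an interval of -0.46 to 1.23, and both intervals leave room for a 2-fold difference.

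Ligands and other genes of the vessel wall, in lists set by role, are given beside the markers. Their counts stand against the 2.52% (MCK-MRcko/mdx) and 3.35% (LysM-MRcko/mdx) of all clusters that were lower at p under 0.05. For genes higher than in Cre-/mdx at that limit the shares were 3.02% and 2.85%. Of 12 ligands and partners of vessel receptors, 10 were lower in MCK-MRcko/mdx and 2 of them at p under 0.05 (median -0.21). Vegfa, the VEGF made largely by myofibers in muscle, read 11.03, 11.04 and 10.39 in Cre-/mdx, 10.27, 10.00 and 10.23 in MCK-MRcko/mdx and 10.21, 10.42 and 10.24 in LysM-MRcko/mdx (-0.65 ± 0.18, interval -1.09 to -0.22, and -0.53 ± 0.18, interval -0.96 to -0.10). Pgf, a further ligand of VEGFR1, was lower by 0.37 in MCK-MRcko/mdx (interval -0.65 to -0.08). Vegfb had the list's greatest difference in each knockout, -1.0 (interval -2.14 to 0.14) and -0.70 (interval -1.84 to 0.44), on a Cre-/mdx group of 9.19, 11.23 and 9.63. Calcrl, the receptor partner of RAMP2, was lower in LysM-MRcko/mdx (-0.66 ± 0.21, interval -1.16 to -0.16) and differed by -0.11 in MCK-MRcko/mdx. Of 15 genes of Notch and ALK1 signaling, 1 was lower at p under 0.05 in each knockout. It was Dll4, the Notch ligand of endothelial tip and arterial cells, which read 7.45, 8.19 and 7.67 in Cre-/mdx, 7.06, 7.0 and 7.28 in MCK-MRcko/mdx and 7.28, 7.06 and 7.28 in LysM-MRcko/mdx (-0.66 ± 0.19, interval -1.10 to -0.21, and -0.56 ± 0.19, interval -1.01 to -0.12). Neither knockout overlapped the controls in Dll4. Of 12 further endothelial transcription factors, Epas1, the hypoxia-inducible factor HIF-2alpha, was lower in MCK-MRcko/mdx (11.34, 11.97 and 11.14 against 10.78, 10.46 and 10.68, -0.84 ± 0.20, interval -1.33 to -0.36), and it was the only gene of that list past the limit there. Sox7 was listed with -0.72 (interval -1.48 to 0.04) and -0.45 (interval -1.21 to 0.31).

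Further endothelial and capillary markers were also mostly below the mean of the controls. Of 17 further endothelial genes, 15 were lower in each knockout, 4 of them at p under 0.05 in MCK-MRcko/mdx (Ecscr, Arhgef15, Ushbp1 and Ly6c1) and 1 in LysM-MRcko/mdx (Arhgef15), with medians of -0.29 and -0.23. Myct1 had the greatest difference in MCK-MRcko/mdx, -1.32 ± 0.69, on arrays that spread from 6.11 to 8.81 (interval -2.96 to 0.32). Of 10 capillary genes, 9 were lower in each knockout with medians of -0.33 and -0.18. These rested in part on 1 control array, since Cre-/mdx replicate 2 was the highest of 9 arrays in 8 of 10 genes. Its median deviation from the Cre-/mdx mean was 0.38, against -0.08 and -0.25 in Cre-/mdx replicates 1 and 3. Deviations were -0.49 to -0.18 in MCK-MRcko/mdx and -0.23 to -0.06 in LysM-MRcko/mdx, so both knockouts overlapped the controls. Cd300lg, the nepmucin of capillary endothelium, read 8.51, 8.87 and 8.73 in Cre-/mdx, 7.86, 8.03 and 7.86 in MCK-MRcko/mdx and 8.37, 8.61 and 8.37 in LysM-MRcko/mdx. Cd300lg was lower in MCK-MRcko/mdx than in Cre-/mdx (-0.79 ± 0.11, interval -1.05 to -0.52, limma adjusted p = 0.54) and than in LysM-MRcko/mdx (0.53 ± 0.11 in the reverse sense, interval 0.27 to 0.80), without overlap. Arterial genes had 0 of 6 past p under 0.05 by limma in either knockout, with medians of -0.12 and -0.03. Of 5 venous genes Ephb4 was lower in MCK-MRcko/mdx by 0.15 (interval -0.28 to -0.02). Lrg1, a glycoprotein of venules and of myeloid cells, was called higher in LysM-MRcko/mdx than in MCK-MRcko/mdx (1.53 ± 0.47, interval 0.41 to 2.65). Of all clusters, 0.204% were called higher in that contrast. Lymphatic genes had medians of 0.05 and 0.04, and Pdpn, podoplanin of lymphatic endothelium and of fibroblasts and macrophages, was higher in each knockout without overlap (0.91 ± 0.18, interval 0.49 to 1.33, and 0.64 ± 0.18, interval 0.22 to 1.06). Of 4 activation genes, Vcam1 was higher in MCK-MRcko/mdx by 0.29 (interval 0.05 to 0.53) and Icam1 in LysM-MRcko/mdx by 0.22 (interval 0.04 to 0.39), whereas Selp (P-selectin), with -0.71 (interval -2.13 to 0.72) and -0.54 (interval -1.97 to 0.88), rested on 1 Cre-/mdx array at 8.40.

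Between the knockouts, 0 of 11 vasoactive genes were lower by limma in LysM-MRcko/mdx at p under 0.05, where 4.13% of all clusters were. In the same contrast (median 0.08) 1 was higher at that limit, where 2.99% of all clusters were. That gene was Ddah1, which degrades inhibitors of nitric oxide synthase. It read 7.88, 7.19 and 7.86 in Cre-/mdx, 7.36, 7.62 and 7.57 in MCK-MRcko/mdx and 8.86, 8.72 and 8.10 in LysM-MRcko/mdx. Ddah1 was called higher in LysM-MRcko/mdx than in MCK-MRcko/mdx (1.04 ± 0.25, interval 0.44 to 1.65), where 0.204% of all clusters were. Against Cre-/mdx, 1 of the 11 vasoactive genes was lower at p under 0.05 in each knockout, and 1 was higher in LysM-MRcko/mdx. Of all clusters, 2.52% in MCK-MRcko/mdx and 3.35% in LysM-MRcko/mdx were lower, and 2.85% in LysM-MRcko/mdx were higher. Prkg1, the cyclic GMP kinase of smooth muscle, was lower in LysM-MRcko/mdx than in Cre-/mdx (-0.45 ± 0.12, interval -0.73 to -0.17). Of 14 further mural genes, 13 were lower in MCK-MRcko/mdx (median -0.16, 1 at p under 0.05, Ndufa4l2) and 8 were higher in LysM-MRcko/mdx (median 0.03). Acta2, smooth muscle actin, which myofibroblasts also make, read 13.97, 13.13 and 14.20 in Cre-/mdx, 12.97, 13.38 and 13.39 in MCK-MRcko/mdx and 15.48, 14.81 and 14.66 in LysM-MRcko/mdx. It was called higher in LysM-MRcko/mdx against Cre-/mdx (1.22 ± 0.33, interval 0.44 to 1.99) and against MCK-MRcko/mdx (1.74 ± 0.33, interval 0.96 to 2.51). Of all clusters, 0.234% and 0.204% were called higher in these contrasts. Ace, angiotensin-converting enzyme of endothelium and macrophages, differed by -0.69 (interval -1.69 to 0.31) in MCK-MRcko/mdx and 0.23 (interval -0.77 to 1.23) in LysM-MRcko/mdx.

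**Figure D4:**
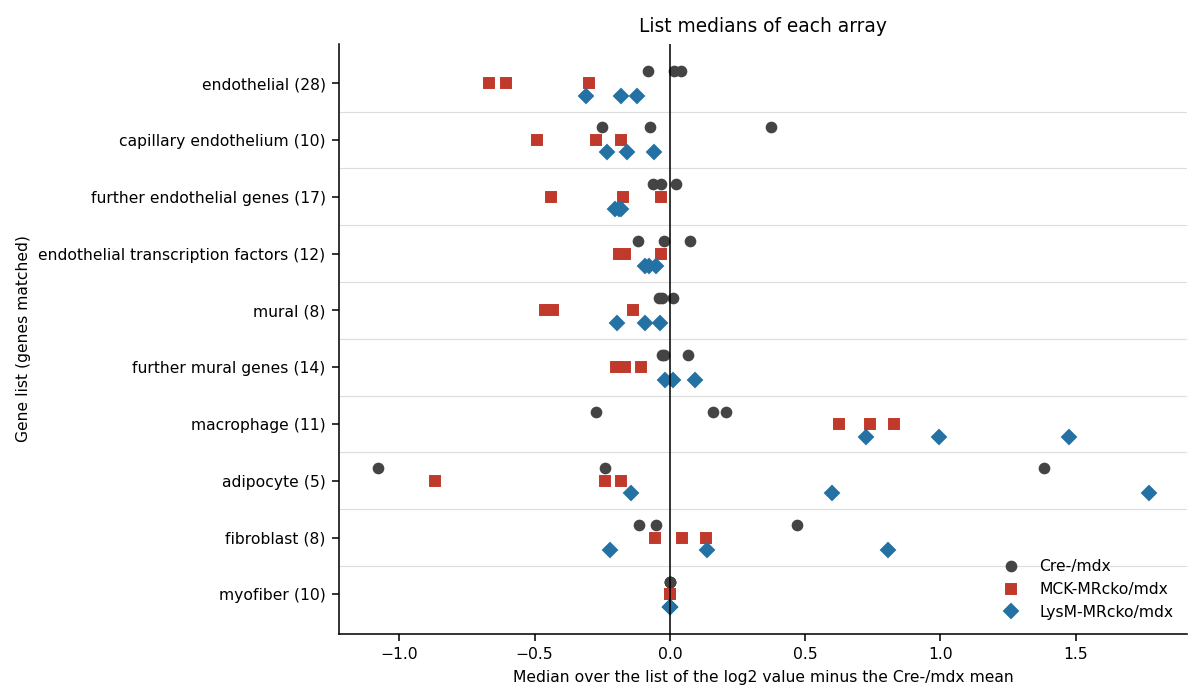
Each point is 1 array and gives the median over a gene list of the log2 value minus the Cre-/mdx mean, with the number of genes matched in brackets. Endothelial and mural medians of the MCK-MRcko/mdx arrays lie between -0.67 and -0.14, while macrophage medians of both knockouts lie above all Cre-/mdx arrays.

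Markers of other cells in the muscle were compared in the same way. The mean log2 level of 11 macrophage markers ranged from 9.96 to 10.43 in Cre-/mdx, 10.89 to 11.14 in MCK-MRcko/mdx and 11.09 to 11.51 in LysM-MRcko/mdx. Of all clusters, 3.02% and 2.85% were higher at p under 0.05 and 0.227% and 0.234% called higher in MCK-MRcko/mdx and LysM-MRcko/mdx. Of the 11 markers, 6 were higher at p under 0.05 in MCK-MRcko/mdx (3 called, Adgre1, Cd68 and Mrc1) and 9 in LysM-MRcko/mdx (6 called, Adgre1, Cd68, Csf1r, C1qa, C1qb and C1qc), with medians of 0.66 and 1.13. Pf4, a platelet chemokine that macrophages also express, was called higher in MCK-MRcko/mdx (1.88 ± 0.31, interval 1.14 to 2.62). Regeneration markers were higher in LysM-MRcko/mdx, with a median of 0.54 over 7 genes and 2 called, Mymk (2.41) and Myh3 (1.84), while their median was -0.01 in MCK-MRcko/mdx. Adipocyte markers ranged from 7.85 to 10.47 in Cre-/mdx, 8.28 to 8.89 in MCK-MRcko/mdx and 8.92 to 10.70 in LysM-MRcko/mdx, with a wide spread within groups. Fibroblast markers ranged from 13.52 to 14.20, 13.85 to 14.23 and 13.85 to 14.53 in the same order, and none of 8 was past p under 0.05 by limma in either knockout. Myofiber markers sat at or near the ceiling (19.27 to 19.40), so a shift in the share of fiber RNA could not be read from them. T and NK cell markers ranged from 4.85 to 5.01 in Cre-/mdx, 4.80 to 4.96 in MCK-MRcko/mdx and 5.10 to 5.17 in LysM-MRcko/mdx, which lay above the other arrays. These levels were near the array medians of 4.70 to 4.78. The median difference in LysM-MRcko/mdx from Cre-/mdx was 0.13, with 1 of 6 genes higher at p under 0.05. The mean level of the platelet list ranged from 5.18 to 5.24, 5.48 to 5.69 and 5.39 to 5.42 in the same order. The median difference from Cre-/mdx over its 7 genes was only 0.09 in MCK-MRcko/mdx and 0.03 in LysM-MRcko/mdx. Pf4 had the greatest difference of the list in MCK-MRcko/mdx (1.88), so the list mean does not show higher platelet markers in general. Schwann cell markers (7.93 to 8.14, 7.89 to 7.93 and 8.01 to 8.26) and the 2 of 7 erythroid markers matched (5.34 to 5.47, 5.15 to 5.47 and 5.34 to 5.46) overlapped between at least the controls and 1 knockout. The part of these cells in the vascular differences was not tested.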

How the data were processed

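Total RNA of quadriceps from 9 mice was hybridised to Clariom D arrays, 1 per mouse. The log2 values were deposited by the authors after gene-level SST-RMA normalisation in Expression Console, and their comparisons used Transcriptome Analysis Console. The versions and the genome build are not given in the sources used here. No values were filtered or renormalised. Symbols came from the array's probe table, updated through RefSeq for 981 clusters, and 31104 of 65672 clusters carried 1 symbol. The number of arrays limits the precision.

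One mean per group was fitted with limma 3.58.1 in R 4.3.3 without covariates, 3 contrasts were tested, and the code was tested on simulated data. Intervals are 95% limma intervals. Alternatives are given in the closing section. Genes written out in full are members called in any contrast, members whose arrays did not overlap the controls in at least 1 contrast, a fixed set (Pecam1, Kdr, Cdh5, Adgrf5, Vwf, Pdgfrb, Rgs5, Myh11), and from other lists the genes called or with the largest difference. Further genes past p under 0.05 were named after their values were seen. The members and lists were chosen with earlier results of these data known. Samples with the same replicate number did not deviate together, so the numbers were not taken as pairs.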

Additional observations from a re-analysis of the deposited data

Results flagged for a closer look

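The knockouts differed from each other in a direct limma contrast, at 2-fold or more and an unadjusted p under 0.05, for 7 genes of the lists. The contrast is LysM-MRcko/mdx minus MCK-MRcko/mdx on the log2 scale, and 0.204% of all clusters were called higher in it. Plvap differed by 1.05 and Pdgfrb by 1.07 (limma adjusted p = 0.42 for each). For both genes the difference from Cre-/mdx was below 0 in MCK-MRcko/mdx and above 0 in LysM-MRcko/mdx. Acta2 differed by 1.74, Lrg1 by 1.53 and Ddah1 by 1.04, and each was above 0 in LysM-MRcko/mdx and below 0 in MCK-MRcko/mdx. The regeneration genes Mymk and Myh3 differed by 2.42 and 1.95, and in MCK-MRcko/mdx they were near the controls. No adjusted p passed 0.05.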

How the results depend on the processing

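Among the 25 endothelial and mural genes named by rule, no difference called as reported changed sign under the 11 alternatives or the 9 fits without 1 array, while Kdr between the knockouts, called in 1 setting, changed sign in 2. Genes of other lists were not rerun. Over the 25 genes 1460 values stayed called or not called as reported, 29 lost a call and 11 gained one, the cause not being tested. A call could be lost on p alone, as for Cdh5 (-1.13) in MCK-MRcko/mdx in the separate fit. In MCK-MRcko/mdx against Cre-/mdx, endothelial genes called fell from 2 to 1 and those lower at p under 0.05 from 17 to 10 in a separate fit on 6 arrays and to 5 by a plain equal-variance test, with 5 also by Tukey biweight averages. Mural calls there were 0 in those 3 settings, with 2 of 8 lower at p under 0.05 by the plain and biweight tests. In LysM-MRcko/mdx against Cre-/mdx the plain and biweight tests gave 0 mural calls and 1 lower, sex as a covariate and the mean of all clusters gave 1 lower, and quantile normalization gave 2 calls, Rgs5 being added (-1.11). In LysM-MRcko/mdx against MCK-MRcko/mdx, 1 mural gene was lower and 1 higher in the separate fit and by the plain and biweight tests, and 1 was higher with sex as a covariate. The biweight test gave 0 mural calls, array weights gave 0 endothelial calls (Plvap 0.99), and quantile normalization gave a mural median of 0.31. Flt1 was called in MCK-MRcko/mdx with sex as a covariate (-1.03).

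The replicate numbers did not pair the samples (correlations of deviations -0.26 to 0.19 for equal numbers, 2 of 9 over 0.1, and -0.36 to 0.39 for unequal ones). With the replicate block, 15 endothelial genes were lower at p under 0.05 in MCK-MRcko/mdx and 2 called, mural calls there were 0 with 2 lower, and 0 endothelial genes were lower in LysM-MRcko/mdx.

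Over the fits without 1 array, endothelial calls ranged from 1 to 4 in MCK-MRcko/mdx (genes lower at p under 0.05 11 to 17, median -0.68 to -0.50), 0 to 1 in LysM-MRcko/mdx (lower 0 to 5, higher 1 to 2, median -0.31 to -0.15) and 0 to 2 between the knockouts (higher 3 to 10, median 0.21 to 0.41). Mural calls ranged from 0 to 1 in each contrast. Mural genes lower at p under 0.05 were 1 to 4 in MCK-MRcko/mdx (median -0.45 to -0.24) and 1 to 2 in LysM-MRcko/mdx (higher 0 to 1, median -0.15 to -0.10). Between the knockouts 0 to 1 were lower and 1 to 4 higher (median 0.0725 to 0.42). The 4 endothelial calls arose without Cre-/mdx replicate 1 (Erg -1.03 and Gpihbp1 -1.01 added) and without MCK-MRcko/mdx replicate 3 (Kdr -1.81 and Erg -1.11 added). Of the genes called, Adgrf5 in MCK-MRcko/mdx kept its call in all 20 settings. Dim genes with repeated values and clusters at the ceiling limit what the arrays can show.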
